A study of Mus musculus with 6 samples.

Results

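The genes examined were 10 members of the interleukin-1 (IL-1) and inflammasome pathway, taken by gene symbol from the 17684 genes of the deposited table: Il1a, Il1b, Il1rn, Il18, Nlrp3, Pycard, Casp1, Casp4, Gsdmd and Il1r1. All 10 were found in the table. RNA from whole kidney was sequenced on the BGISEQ-500 platform, with 3 libraries in the Db group and 3 in the Db + Ato10 group, and the comparison asked how long atorvastatin treatment was related to kidney gene expression in diabetic mice. Both groups were db/db mice of strain C57 BLKS/L as labelled (C57BLKS/J in the study's methods), which lack a working leptin receptor and become obese and diabetic, and all were 50 weeks old. The Db group received saline and the Db + Ato10 group received atorvastatin, a statin that inhibits cholesterol synthesis, at 10 mg/kg over 40 weeks, given by gavage on several days a week in succession. No mice without the db/db genotype were analysed here.

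IL-1α and IL-1β are inflammatory cytokines that act on the same receptor, and their action is opposed by the IL-1 receptor antagonist. IL-1β and IL-18 are made as inactive precursors. An inflammasome, built from a sensor such as NLRP3 and the adaptor ASC, activates caspase-1, which cuts both precursors and also gasdermin D, whose fragment opens pores in the cell membrane in the form of cell death called pyroptosis. In the kidney IL-1β and NLRP3 are known mainly from myeloid cells, while IL-18 is also made by tubule cells.

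Library totals were 13134930, 11381678 and 12426051 counts in Db replicates 1, 2 and 3, and 14578023, 14667909 and 13133241 counts in Db + Ato10 replicates 1, 2 and 3. Levels are given below as CPM, counts scaled to a common library size with TMM factors, and always in the order of replicates 1, 2 and 3. At these depths 3 counts of a gene corresponded to between 0.198 and 0.260 CPM, and lower levels rest on fewer than 3 counts. These floors cover counting error only.

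Some libraries stood apart from their groups. Over 4 Y-linked genes (Ddx3y, Uty, Kdm5d and Eif2s3y) the library labelled Db replicate 1 held 2 counts, against 1419 to 2116 in the other 5 libraries, although the study's methods enrolled only male mice. Db + Ato10 replicate 1 had the highest level of each of the 10 members among the 6 libraries. Db + Ato10 replicate 3 lay near the Db libraries, with a median difference from the Db mean of 0.58 on the log2 scale over the 8 members tested, beside 3.55 and 2.31 in Db + Ato10 replicates 1 and 2. Selected results are therefore also given without 1 of these libraries. Kidney markers were present in all 6 libraries: the summed level of 9 tubule and podocyte markers was 14576, 13219 and 13971 CPM in the Db group and 5716, 4898 and 12212 CPM in the Db + Ato10 group. On the TPM scale, in which counts are divided by gene length, Slc34a1 of the proximal tubule was the most abundant in 4 of the 6 libraries and Umod, the uromodulin gene of the thick ascending limb, in Db replicate 2 and Db + Ato10 replicate 1.

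Levels of most members were higher in Db + Ato10 replicates 1 and 2 than in the Db libraries, with large differences between the mice. In the edgeR comparison of all 6 libraries Il1b and Il1rn had the largest log2 fold changes of the 8 members tested. All 8 members tested had a higher estimate in the Db + Ato10 group, but 0 of them met the criteria for differentially expressed genes (DEGs), a fold change over 1.5 and an adjusted p-value under 0.05 with edgeR's quasi-likelihood test, and nor did any of the 13679 genes tested (0%). The number of members higher at an unadjusted p-value under 0.05 was 7 of 8, beside 11.2% of all genes tested. DESeq2 called 4 of the 8 (Il1rn, Casp1, Casp4 and Gsdmd), beside 5.17% of all genes called higher, and 0 to 6 with 1 library left out. Of the 8, 4 (Il1b, Il1rn, Casp1 and Casp4) reached 10 counts in fewer than 3 Db libraries, as did 802 of all genes tested; they passed the filter only with the counts of the Db + Ato10 group, so these counts of members are no support. Il1a and Nlrp3 did not reach 10 counts in 3 libraries and were not tested.

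Each library of the Db + Ato10 group lay above each Db library for 7 of the 10 members, beside 11.2% of the 17672 genes with at least 1 count. Over the tested genes this held for 6 of 8 members, beside 12.0% of all. Of these, Il1b, Il1rn, Casp1 and Casp4 had passed the filter only with the Db + Ato10 counts, so this count is no support. Among all 10 members the exceptions were Nlrp3, Pycard and Il1r1, and with FPKM or TPM also Casp4. Db + Ato10 replicate 1 exceeded every Db library for 10 of 10 members, replicate 2 for 9 and replicate 3 for 7. The share of all genes for which a single library did so was not computed, so these counts are no support. With 3 against 3 libraries the smallest p-value that an exact two-sided permutation test allows is 0.1.

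**Figure D1:**
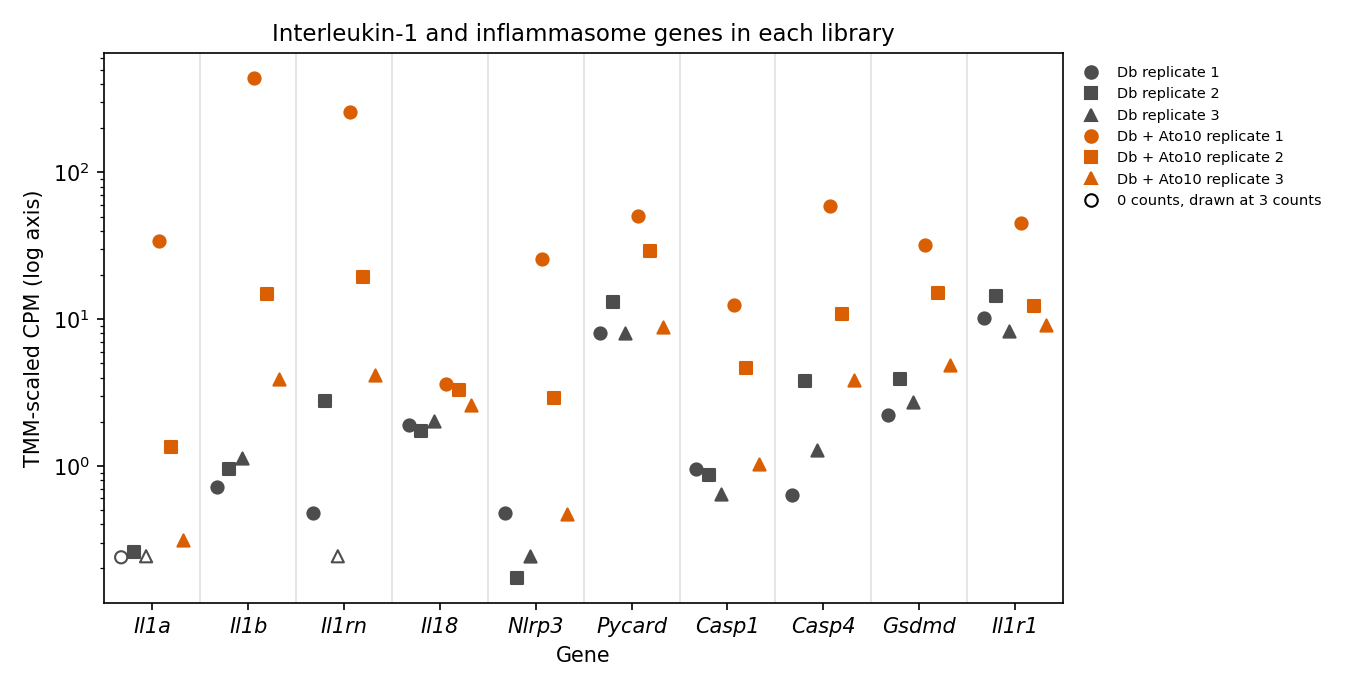
TMM-scaled CPM (log axis) of each of the 10 genes, with 1 point for each of the 6 libraries, Db in grey and Db + Ato10 in orange; open points are libraries with 0 counts, drawn at the level of 3 counts. Db + Ato10 replicate 1 is the highest point for each gene, and Db + Ato10 replicate 3 lies close to the Db libraries for several genes, such as Pycard at 8.90 CPM.

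Among the ligands, Il1b (NCBI Gene 16176), which encodes IL-1β, was measured at 0.715, 0.954 and 1.13 CPM in the Db group and at 440, 14.9 and 3.94 CPM in the Db + Ato10 group. The groups did not overlap, and the 3 Db libraries were much alike while those of the Db + Ato10 group lay far apart. The group means were 0.933 ± 0.209 CPM and 153 ± 249 CPM (SD, n = 3 each), so that the spread within the Db + Ato10 group exceeded its mean. Relative to the Db mean, Db + Ato10 replicates 1, 2 and 3 were 471-fold, 15.9-fold and 4.22-fold higher. The log2 fold change was 7.34 ± 2.00 (SE), with an edgeR adjusted p-value of 0.239. Without Db + Ato10 replicate 1 it was 3.34 ± 0.60 with an adjusted p-value of 0.347, and without Db + Ato10 replicate 3 it was 7.92 with an adjusted p-value of 0.0370. DESeq2 set no adjusted p-value for Il1b with all 6 libraries. It called Il1b without Db + Ato10 replicate 1, 2 or 3, at log2 fold changes of 3.34, 7.93 and 7.95, but in no run without a Db library. A missing adjusted p-value counted as not called, so the runs without a Db library may hold no result rather than a negative one.

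Il1a (NCBI Gene 16175) encodes IL-1α, which is active without cutting by caspase-1. It had 0, 3 and 0 counts in the Db group and 521, 20 and 4 counts in the Db + Ato10 group. Counts were thus near the floor in the Db libraries and in Db + Ato10 replicate 3, and the groups failed to overlap only by the difference between 3 and 4 counts. The pooled ratio of Db + Ato10 to Db was 155, with an exact 95% binomial interval of 52.9 to 756 that covers counting error only. Of the 545 counts behind it 521 came from Db + Ato10 replicate 1, and without that library the ratio was 10.6 (3.22 to 55.1). Without Db replicate 2, which held all 3 Db counts, Db + Ato10 was at least 106-fold higher against a floor of 3 counts over the group, and with any other library left out the ratio was 102 to 229. These values were chosen after seeing the data. The same gene was 0.0514, 0.0591 and 0.0558 times as abundant as Il1b on the TPM scale in Db + Ato10 replicates 1, 2 and 3, where the value of replicate 3 rests on 4 counts. In the Db libraries the ratio was 0, 0.179 and 0.

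Il18 (NCBI Gene 16173), the gene of the second cytokine that caspase-1 activates, behaved differently. Its levels were 1.91, 1.73 and 2.02 CPM in the Db group and 3.62, 3.31 and 2.60 CPM in the Db + Ato10 group. The groups did not overlap, and here Db + Ato10 replicate 1 was close to replicate 2. The means were 1.89 ± 0.144 CPM and 3.18 ± 0.524 CPM (SD, n = 3 each). The log2 fold change of 0.75 ± 0.27 (SE) had an edgeR adjusted p-value of 0.262, and it was 0.65 without Db + Ato10 replicate 1. On the TPM scale Il18 exceeded Il1b 3.55-fold, 2.28-fold and 2.06-fold in the Db libraries. In the Db + Ato10 libraries the ratio of Il18 to Il1b was 0.0120, 0.309 and 0.905, so that Il1b was the higher of these cytokine genes. In Db + Ato10 replicate 3 both were close, at 4.38 and 4.84 TPM.

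The antagonist gene Il1rn (NCBI Gene 16181) was measured at 0.477, 2.77 and 0 CPM in the Db group and at 257, 19.2 and 4.17 CPM in the Db + Ato10 group. The groups did not overlap, and Db replicate 2 was the highest of the Db libraries. The means were 1.08 ± 1.48 CPM and 93.5 ± 142 CPM (SD, n = 3 each). The log2 fold change was 6.45 ± 1.92 (SE), with an adjusted p-value of 0.239 with edgeR and 0.0346 with DESeq2. It was 3.46 ± 1.19 without Db + Ato10 replicate 1 (edgeR adjusted p-value 0.355) and 7.02 without Db + Ato10 replicate 3 (edgeR adjusted p-value 0.0479). The ratio of antagonist to Il1b on the TPM scale was 0.304, 0.679 and 0.587 in Db + Ato10 replicates 1, 2 and 3. It was 0.35, 1.5 and 0 in the Db libraries, and the groups overlapped. The Db ratios rest on 6, 32 and 0 counts of Il1rn and 9, 11 and 14 counts of Il1b.

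Il1rn has several starts. As background, its upstream first exon belongs to an intracellular form of the antagonist, and the secreted form starts from a downstream exon. Transcripts of the upstream start were estimated by the authors at 0, 32 and 0 counts in the Db group and at 50.8, 97 and 40.6 counts in the Db + Ato10 group. Transcripts of the downstream starts had 6, 0 and 0 counts in the Db group and 3835, 188 and 12.4 counts in the Db + Ato10 group. The upstream transcript was therefore at a like level in all 3 Db + Ato10 libraries (3.34, 6.55 and 3.19 CPM) and in Db replicate 2 (2.77 CPM), while the downstream transcripts spanned 253 to 0.980 CPM among the Db + Ato10 libraries.

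The downstream starts made up 98.7% of the assigned counts in Db + Ato10 replicate 1 (exact 95% binomial interval 98.3 to 99.0), 66.0% in replicate 2 (60.1 to 71.4) and 23.5% in replicate 3 (12.3 to 36.2). In Db replicate 1 they made up 6 of 6 counts, or 100% (54.1 to 100). In Db replicate 2 they made up 0 of 32 counts, which allows a share of up to 9.38% by the floor of 3 counts and 10.9% by the exact interval. Db replicate 3 had 0 counts and gives no share. The transcripts have most of their sequence in common, and the intervals cover counting error only, not error in assigning reads to a start.

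**Figure D2:**
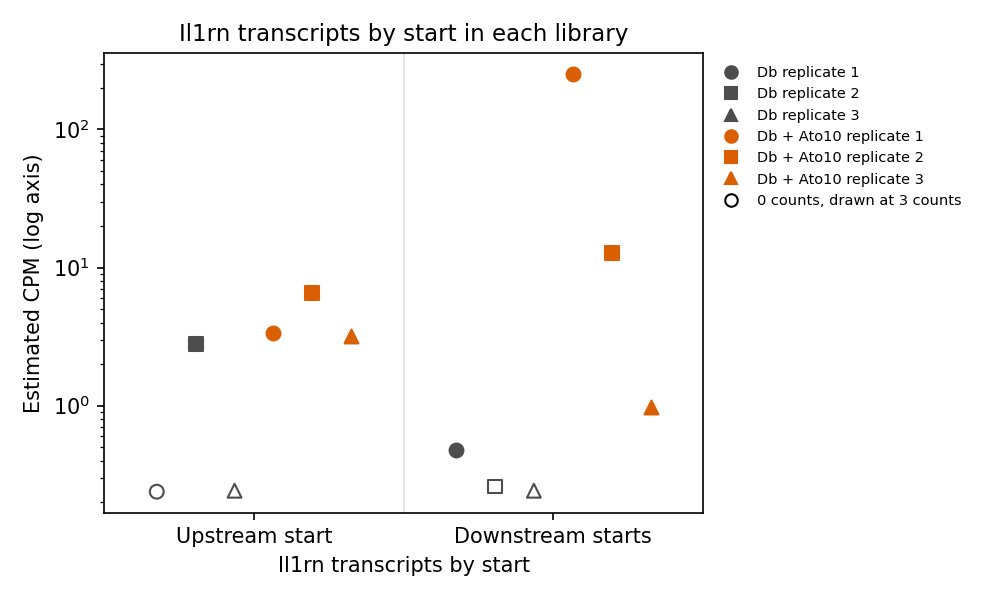
Estimated CPM (log axis) of Il1rn transcripts from the upstream start and from the downstream starts, with 1 point per library, Db in grey and Db + Ato10 in orange; open points are libraries with 0 counts, drawn at the level of 3 counts. The downstream transcripts range from 0.980 to 253 CPM in the Db + Ato10 group, and the upstream transcript from 3.19 to 6.55 CPM.

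The receptor gene Il1r1 (NCBI Gene 16177), through which IL-1α and IL-1β signal, was measured at 10.2, 14.4 and 8.24 CPM in the Db group and at 45.1, 12.4 and 9.06 CPM in the Db + Ato10 group. The groups overlapped, and Db + Ato10 replicate 1 alone lay above the Db range. The log2 fold change was 1.02 ± 0.62 (SE), with an edgeR adjusted p-value of 0.415, and it was -0.02 ± 0.30 without Db + Ato10 replicate 1. The decoy receptor gene Il1r2, whose product binds IL-1 without signalling and which was singled out after its values had been seen, had 1, 4 and 0 counts in the Db group and 3612, 111 and 7 counts in the Db + Ato10 group. On the TPM scale the decoy exceeded Il1r1 19.3-fold in Db + Ato10 replicate 1 and 2.21-fold in replicate 2. In replicate 3 the ratio was 0.217, and in the Db libraries it was 0.0701 at most.

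The sensor gene Nlrp3 (NCBI Gene 216799) had 6, 2 and 3 counts in the Db group and 390, 43 and 6 counts in the Db + Ato10 group. In CPM these were 0.477, 0.173 and 0.242 against 25.7, 2.90 and 0.473. Db + Ato10 replicate 3 lay within the Db range, so the groups overlapped. The pooled ratio of Db + Ato10 to Db was 34.1, with an exact 95% binomial interval of 18.9 to 68.9 for counting error only. Db + Ato10 replicate 1 gave 390 of the 439 counts, and without it the ratio was 5.91 (3.03 to 12.6), a value added after seeing the data. With any other library left out the ratio was 28.5 to 49.2.

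Pycard (NCBI Gene 66824) encodes the adaptor ASC, which joins sensors to caspase-1. It was measured at 8.11, 13.2 and 8.08 CPM in the Db group and at 50.5, 29.0 and 8.90 CPM in the Db + Ato10 group. Db + Ato10 replicates 1 and 2 lay above the Db libraries and replicate 3 lay among them. On the log2 scale the fold change was 1.59 ± 0.60 (SE), with an edgeR adjusted p-value of 0.268. Without Db + Ato10 replicate 3 it was 2.03, with an adjusted p-value of 0.0316, and without Db + Ato10 replicate 1 it was 0.97 ± 0.50, with an adjusted p-value of 0.471. Pycard was the most abundant of the 10 members per length in 5 of the 6 libraries, at 6.85, 11.2 and 6.82 TPM in the Db group and 38.1, 24.4 and 7.08 TPM in the Db + Ato10 group. In Db + Ato10 replicate 1 it was the fourth, after Il1b, Il1rn and Casp4.

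Casp1 (NCBI Gene 12362), the gene of the caspase that inflammasomes activate, was measured at 0.954, 0.867 and 0.646 CPM in the Db group and at 12.6, 4.66 and 1.02 CPM in the Db + Ato10 group. The groups did not overlap, although Db + Ato10 replicate 3 exceeded the highest Db library by only 1 count. A log2 fold change of 2.88 ± 0.87 (SE) was estimated, with an adjusted p-value of 0.239 with edgeR and 0.0171 with DESeq2. It was 1.80 ± 0.66 without Db + Ato10 replicate 1 (edgeR adjusted p-value 0.373) and 3.38 without Db + Ato10 replicate 3 (edgeR adjusted p-value 0.0287).

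Casp4 (NCBI Gene 12363) encodes the mouse protein also called caspase-11, which responds to bacterial lipopolysaccharide inside the cell. It was measured at 0.636, 3.81 and 1.29 CPM in the Db group and at 58.8, 10.9 and 3.86 CPM in the Db + Ato10 group. Db replicate 2 and Db + Ato10 replicate 3 were nearly equal, at 44 and 49 counts, and in CPM the groups did not overlap by that margin. On the TPM scale they overlapped, at 5.28 and 4.76 in these libraries. With edgeR the log2 fold change was 3.68 ± 1.16 (SE), with an adjusted p-value of 0.239 with edgeR and 0.00676 with DESeq2. Without Db + Ato10 replicate 3 edgeR gave 4.20, with an adjusted p-value of 0.0509, and without Db + Ato10 replicate 1 it gave 1.97 ± 0.76, with an adjusted p-value of 0.384.

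The pore former Gsdmd (NCBI Gene 69146), which encodes gasdermin D, was measured at 2.23, 3.90 and 2.75 CPM in the Db group and at 31.9, 15.1 and 4.88 CPM in the Db + Ato10 group. The groups did not overlap, and Db + Ato10 replicate 2 was nearer to replicate 1 than it was for Il1b. The means were 2.96 ± 0.858 CPM and 17.3 ± 13.7 CPM (SD, n = 3 each). This gave a log2 fold change of 2.55 ± 0.67 (SE), with an adjusted p-value of 0.239 with edgeR and 0.00496 with DESeq2. It was 1.77 ± 0.51 without Db + Ato10 replicate 1 (edgeR adjusted p-value 0.347) and 3.00 without Db + Ato10 replicate 3 (edgeR adjusted p-value 0.0287).

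Without Db + Ato10 replicate 3, edgeR called 5 of the 8 members tested (Il1b, Il1rn, Pycard, Casp1 and Gsdmd), beside 5.96% of all genes called higher. Of these, Il1b, Il1rn and Casp1 had passed the filter only with the Db + Ato10 counts, so this count is no support. Without Db replicate 1, the library with few Y-linked counts, edgeR called 0 members and 0 genes in all, with 1043 genes at an unadjusted p-value under 0.05, and DESeq2 called 0 members and 195 genes. The log2 fold changes were then 7.20 for Il1b, 6.11 for Il1rn, 3.02 for Casp1, 3.28 for Casp4 and 2.40 for Gsdmd.

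Other genes of the pathway were read from the same edgeR comparison. Of the other IL-1 family ligands and binding proteins, 6 of 8 listed genes were in the table and 4 were tested; 4 were higher at an unadjusted p-value under 0.05, and the median log2 fold change was 2.72. Il1f9 was not tested without Db + Ato10 replicate 1, and then over the other 3 genes the median was 1.59, beside 1.51 with all libraries. All genes tested had a median of -0.01, and 11.2% of them were higher at that p-value. Of the 4, 2 passed the filter only with the counts of the Db + Ato10 group, so their number is no support; the same holds for 3, 5 and 3 tested genes of the receptor, sensor and NF-κB lists below. Il1f6, the gene of IL-36α, was measured at 0.238, 3.03 and 0.0808 CPM in the Db group and at 21.5, 18.9 and 10.5 CPM in the Db + Ato10 group. All 3 Db + Ato10 libraries lay above each Db library. Il1f9, the gene of IL-36γ, was measured at 0.715, 0.780 and 0.485 CPM in the Db group and at 97.2, 6.82 and 0.866 CPM in the Db + Ato10 group, so that here replicate 3 lay near the Db libraries. Il18bp, whose product binds and blocks IL-18, was at 7.87, 11.2 and 7.26 TPM in the Db group and 20.2, 41.8 and 8.97 TPM in the Db + Ato10 group, above Il18 in each library. Il33, an alarmin of the family, had a log2 fold change of 1.19 ± 0.47 (SE), and 0.71 without Db + Ato10 replicate 1.

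Of the other IL-1 family receptors and signalling genes, 12 of 13 were tested. Here 9 were higher and 3 lower, 5 were higher at an unadjusted p-value under 0.05, and the median log2 fold change was 0.79, or 0.35 without Db + Ato10 replicate 1. Of the 5 with the highest mean CPM, Irak2 had a log2 fold change of 0.59 ± 0.29 (SE), and 0.24 without Db + Ato10 replicate 1. The value was -0.10 ± 0.11 for Tollip, -0.07 ± 0.14 for Irak1 and 0.09 ± 0.13 for Traf6, which carry or adjust the receptor's signal. Sigirr, a receptor that dampens IL-1 signalling, had -0.34 ± 0.28. Il1rl2, the IL-36 receptor gene, was measured at 0.556, 1.47 and 1.37 CPM in the Db group and at 10.7, 3.78 and 1.73 CPM in the Db + Ato10 group.

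Of the other inflammasome sensors and regulators, 12 of 16 were tested, 9 were higher and 3 lower, 5 were higher at an unadjusted p-value under 0.05, and the median log2 fold change was 1.83. Over the 10 genes also tested without Db + Ato10 replicate 1 it was 1.86 with all libraries and 0.99 without that one. Aim2, a sensor of DNA in the cytosol, was measured at 0.556, 0.867 and 0.727 CPM in the Db group and at 9.35, 2.97 and 1.34 CPM in the Db + Ato10 group. P2rx7, the ATP receptor upstream of NLRP3, was at 2.78, 2.77 and 2.83 CPM against 17.7, 10.2 and 3.39 CPM. Panx1, the gene of a membrane channel, was at 0.397, 1.04 and 0.808 CPM against 11.4, 9.25 and 1.42 CPM. The groups did not overlap for these 3 genes. Nek7, a kinase that binds NLRP3, and Txnip, an NLRP3 partner, had log2 fold changes of -0.13 ± 0.12 and -0.02 ± 0.36 (SE). Nlrp6, an epithelial sensor gene, had -0.53 ± 0.48. Mefv, the gene of the sensor pyrin, was singled out after its values had been seen: it had 0 counts in the 3 Db libraries and 533, 20 and 1 counts in the Db + Ato10 group, at least 158-fold higher against a floor of 3 counts over the Db group. Without Db + Ato10 replicate 1, which gave 533 of the 554 counts, it was at least 9.29-fold higher, and with any other library left out at least 103-fold higher. Reads of the near-identical Naip genes could have been divided among them, so the value of Naip2, 1.86 ± 0.70, is uncertain; without Db + Ato10 replicate 1 it was 0.68 ± 0.33.

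Of the other inflammatory caspases, gasdermins and pyroptosis genes, 4 of 6 were tested and all 4 were higher, 2 at an unadjusted p-value under 0.05, with a median log2 fold change of 0.56. Casp8, which also takes part in apoptosis, was at 34.8, 38.8 and 35.5 CPM in the Db group and 53.9, 66.8 and 48.8 CPM in the Db + Ato10 group, without overlap. Ninj1, needed for rupture of the membrane late in pyroptosis, and Gsdme, another gasdermin gene, had log2 fold changes of 0.48 ± 0.25 and 0.12 ± 0.23 (SE). Casp12, a further caspase gene, had 2.41 ± 0.71.

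Of the genes induced by IL-1 through NF-κB, 13 of 17 were tested. All 13 had an unadjusted p-value under 0.05 and a higher level, with a median log2 fold change of 2.93. Over the 12 genes also tested without Db + Ato10 replicate 1 it was 2.64 with all libraries and 1.51 without that one. Lcn2, the gene of the lipocalin NGAL, was measured at 3.02, 43.5 and 6.46 CPM in the Db group and at 5088, 868 and 308 CPM in the Db + Ato10 group. Icam1, an adhesion molecule gene, was at 18.7, 31.3 and 25.6 CPM against 142, 100 and 45.9 CPM. Cxcl2, a chemokine gene, had 0, 1 and 2 counts against 8830, 269 and 33 counts. Among genes of the NF-κB pathway itself the log2 fold change was 0.81 ± 0.29 (SE) for Nfkb1, 1.56 ± 0.47 for Nfkb2, 2.04 ± 0.49 for Relb, 2.35 ± 0.90 for the inhibitor gene Nfkbia and 2.93 ± 0.89 for Tnfaip3, which dampens the pathway. Leaving out Db + Ato10 replicate 1 gave 0.49, 0.88, 1.48, 0.61 and 1.55 in the same order. The chemokine gene Cxcl1 and the adhesion gene Vcam1 had 4.03 ± 0.88 and 3.05 ± 1.01. In all 5 pathway lists together, 0 of 45 tested genes were DEGs with edgeR and 19 with DESeq2, all higher, beside 5.17% of all genes. With 1 library left out DESeq2 called 3 (without Db replicate 1) to 31 (without Db + Ato10 replicate 3). EdgeR called 19 of 43 without Db + Ato10 replicate 3, all higher, beside 5.96%. With all 6 libraries, 2, 3, 5 and 3 tested genes of the ligand, receptor, sensor and NF-κB lists passed the filter only with the Db + Ato10 counts. These pooled counts are therefore no support.

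Markers of other cells moved with the members, and in these bulk samples more cells of a type and more RNA per cell cannot be told apart. The summed level of 13 macrophage and monocyte markers was 137, 247 and 188 CPM in the Db group and 5685, 1353 and 292 CPM in the Db + Ato10 group. All 13 were higher at an unadjusted p-value under 0.05, beside 11.2% of all genes; 2 of them passed the filter only with the Db + Ato10 counts. On the TPM scale Lyz2 was the most abundant in all 6 libraries. There was no overlap of the groups for 8 of the 13 (Lyz2, Cd14, C1qb, C1qc, Csf1r, Cd68, Itgam and Mrc1), beside 12.0% of all genes tested. None of the 13 was at 0 in a library. The summed level of 12 neutrophil markers was 7.31, 10.8 and 6.30 CPM in the Db group and 11313, 171 and 30.4 CPM in the Db + Ato10 group. S100a9 was the most abundant on the TPM scale in 5 of the 6 libraries, and S100a8 in Db replicate 1. In CPM, Ltf led in Db + Ato10 replicates 2 and 3, at 61.9 and 18.7 CPM beside 42.8 and 5.36 CPM for S100a9. The sum of 30.4 CPM in replicate 3 thus rested mostly on Ltf. Of the 12 markers, 5 (S100a8, S100a9, Csf3r, Retnlg and Ltf) were tested. All 5 were higher at an unadjusted p-value under 0.05, but 3 had passed the filter only with the Db + Ato10 counts, so this count is no support. The neutrophil marker Ly6g, named with its values known, had 1, 0 and 1 counts in the Db group and 396, 7 and 0 counts in the Db + Ato10 group, so that it was at 0 in Db + Ato10 replicate 3, and Elane, Mpo and Camp were also at 0 there. The part of either list in the result was not tested.

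The members followed these sums to different degrees. Casp1 was 0.696%, 0.350% and 0.343% of the summed macrophage marker level in the Db group and 0.221%, 0.344% and 0.350% in the Db + Ato10 group, and the groups overlapped. Il1b was 0.522%, 0.385% and 0.600% of that sum in the Db group and 7.74%, 1.10% and 1.35% in the Db + Ato10 group, without overlap. Pycard was a smaller percentage of it in each Db + Ato10 library (0.889%, 2.15% and 3.04%) than in each Db library (5.92%, 5.32% and 4.29%). Nlrp3, with few counts, was 0.348%, 0.0701% and 0.129% in the Db group and 0.452%, 0.215% and 0.162% in the Db + Ato10 group, with overlap. Of the macrophage sum, Lyz2 alone held 20.9, 57.9 and 41.4 CPM in the Db group and 2663, 538 and 65.3 CPM in the Db + Ato10 group. The sum was thus not made up alike in all libraries. Against the summed neutrophil markers, Il1b was 9.78%, 8.80% and 17.9% in the Db group and 3.89%, 8.67% and 13.0% in the Db + Ato10 group, and the groups overlapped. In Db + Ato10 replicate 3 Ltf made up 18.7 of the 30.4 CPM of that sum.

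Other lists also differed. The summed level of 12 urothelial and squamous epithelial markers was 8.42, 8.76 and 6.14 CPM in the Db group and 257, 184 and 59.5 CPM in the Db + Ato10 group. Of 7 tested, 6 were higher at an unadjusted p-value under 0.05, with Krt20, Krt5, Krt14, Krt15 and Sprr1a not overlapping. However, 5 of the 7 had passed the filter only with the Db + Ato10 counts, so this count is no support. The remaining tested gene, Upk1a, had a lower estimate, a log2 fold change of -0.66 ± 0.44 (SE), and its groups overlapped. Without Db + Ato10 replicate 1 the value of Upk1a was -1.17. The most abundant on the TPM scale was Krt20 in Db + Ato10 replicates 1 and 2, Upk1a in Db replicate 1 and Sprr1a in the other 3 libraries. The sum of 6 fibroblast and pericyte markers was 68.5, 128 and 87.6 CPM against 1137, 440 and 174 CPM, with 5 of 6 higher at an unadjusted p-value under 0.05 and no overlap for Col1a1, Col3a1, Dcn and Lum, beside 11.2% and 12.0% of all genes tested. Their median log2 fold change was 2.57, and 0.94 without Db + Ato10 replicate 1. Dcn led on the TPM scale in 5 of the 6 libraries and Col1a1 in Db + Ato10 replicate 2. The sum of 10 lymphocyte markers was 2.86, 23.8 and 6.22 CPM against 332, 111 and 9.06 CPM, and the sums overlapped. They were led on the TPM scale by Jchain in 5 of the 6 libraries and by Cd79b in Db replicate 1. All 5 tested were higher, 3 at an unadjusted p-value under 0.05, and the groups overlapped for all 5. All 5 had passed the filter only with the Db + Ato10 counts, so this count is no support. The 6 endothelial markers were led by Emcn on the TPM scale in all 6 libraries. Their sums were 347, 292 and 319 CPM against 388, 153 and 304 CPM, and these overlapped. Lower estimates were found for 4 of the 6, beside 6922 of all 13679 genes tested. Only Kdr was lower at an unadjusted p-value under 0.05 (edgeR, 0.0235), beside 5.71% of all genes tested. It alone was lower without overlap, beside 11.3% of all. Of the 9 tubule and podocyte markers, 9 had lower estimates and 2 (Slc12a1 and Slc12a3) were lower at an unadjusted p-value under 0.05, beside 5.71% of all genes tested; for these 2 and Slc5a2 the Db + Ato10 libraries lay below the Db libraries without overlap, beside 11.3% of all. The part of these lists in the members' values was not tested.

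**Figure D3:**
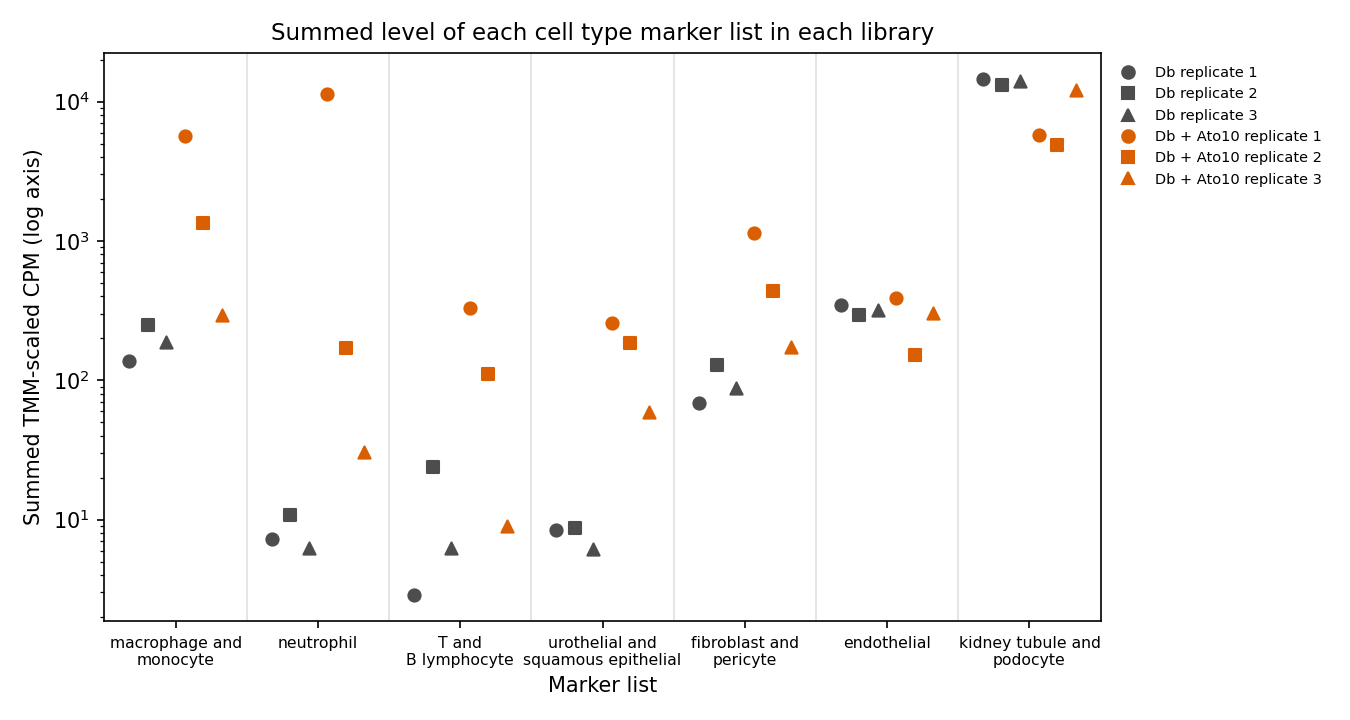
Summed TMM-scaled CPM (log axis) of each cell type marker list, with 1 point per library, Db in grey and Db + Ato10 in orange. The macrophage and neutrophil sums of Db + Ato10 replicate 1 are 5685 and 11313 CPM, and those of Db + Ato10 replicate 3 are 292 and 30.4 CPM.

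The genes whose levels over the 6 libraries were most like those of Il1a, Il1b and Il18 were found by the Euclidean distance of log2 CPM centred on each gene's mean. For Il1b the 5 nearest of 13388 genes were Fpr1 (distance 0.56), Mmp9 (0.89), Trem1 (1.21), Cd177 (1.33) and Asprv1 (1.37). For Il1a they were F10 (0.69), Pirb (1.00), Rac2 (1.01), Alox5ap (1.02) and Slfn4 (1.04), from 13389 genes. The neighbours of Il18 were Trp53, Ptpn23, Ccdc86, Parp8 and Ccm2, with distances of 0.14 to 0.23. The 3 cytokine genes had no neighbour in common. The profiles were not scaled, so the distance also grows with the size of a change. Il18, with a log2 fold change of 0.75, could hardly share neighbours with Il1b at 7.34. Il1a was near the floor in the Db libraries and Db + Ato10 replicate 3, where the prior count narrows its range. The lack of a common neighbour is therefore no support for a difference between these genes.

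Promoter sequences are shown for the cytokine genes that differed most, for both kinds of start of the antagonist gene and for Casp4. They were taken from the RefSeq promoter table (build GRCm38.p6), in which 9 of the 10 members had an entry, 14 entries in all; Gsdmd had none. Bases 150 to 11 before the start are printed 5′ to 3′ on the gene's own strand. Capitals mark TATAAA, or the NF-κB consensus of 10 letters, searched on both strands in the 250 bases before the start. GAGGAAGT was searched in the same way. TATAAA was found in 12.4%, the NF-κB consensus in 7.25% and GAGGAAGT in 2.44% of all 32851 promoters of that length.

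Il1a, chr2:129309983-129310122, minus strand: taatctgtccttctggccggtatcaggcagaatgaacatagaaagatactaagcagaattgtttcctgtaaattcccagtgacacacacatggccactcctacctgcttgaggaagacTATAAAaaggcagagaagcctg
Il1b, chr2:129371150-129371289, minus strand: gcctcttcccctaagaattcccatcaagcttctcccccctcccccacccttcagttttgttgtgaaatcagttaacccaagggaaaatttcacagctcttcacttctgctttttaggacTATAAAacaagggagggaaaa
Il1rn upstream start, chr2:24336710-24336849, plus strand: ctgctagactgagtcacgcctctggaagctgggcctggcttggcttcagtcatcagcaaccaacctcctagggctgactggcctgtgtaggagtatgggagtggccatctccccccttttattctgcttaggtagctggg
Il1rn first downstream start, chr2:24345141-24345280, plus strand: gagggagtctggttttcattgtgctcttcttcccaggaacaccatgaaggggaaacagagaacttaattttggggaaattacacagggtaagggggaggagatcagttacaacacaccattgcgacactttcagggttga
Casp4, chr9:5308699-5308838, plus strand: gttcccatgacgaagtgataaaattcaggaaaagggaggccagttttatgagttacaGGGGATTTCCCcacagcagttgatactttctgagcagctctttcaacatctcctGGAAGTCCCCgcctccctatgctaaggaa

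TATAAA began 32 bases before the start in Il1a and 31 bases before it in Il1b, both on chromosome 2. In Il18 it began 175 bases before the start, outside the bases printed. GAGGAAGT lay in 1 of the 14 entries, that of Pycard. The NF-κB consensus lay in 4 of the 14 entries, both of Casp4 and 1 of 2 each of Nlrp3 and Il1r1. In Casp4 a pair of overlapping matches and a further match were found. The windows of both Casp4 entries overlap and hold the same matches, so by member the consensus lay in 3 of the 9 with an entry. No motif searched was found in the windows of the 3 Il1rn starts. A match describes the letters and does not show that a factor binds there.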

How the data were processed

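Kidney RNA of 3 Db and 3 Db + Ato10 mice was compared, 1 library per mouse, with groups taken from the sample labels. One label field gives atorvastatin for all 6 mice, and the groups follow the treatment characteristic. The submitters' processing notes name HISAT, Bowtie2 2.2.5 and the build mm9. Expected counts, not normalized, were deposited by the authors for genes and transcripts, and 91.3% of gene values were whole exactly as deposited, with no tolerance. The authors deposited FPKM per gene, scaled to length and depth. The authors deposited TPM per gene and transcript, scaled to length and to an equal total. The 6 FPKM columns of the transcript table were not used here. No pair of libraries was identical (0 pairs).

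Counts were rounded, and genes that reached 10 counts in 3 or more libraries were tested with edgeR 4.0.16 in R 4.3.3 (TMM, quasi-likelihood F test, Benjamini-Hochberg adjustment over all genes tested). The SE was derived as the absolute log2 fold change over the root of F. Log2 CPM used a prior count of 2. Alternatives were DESeq2 1.42.0, limma-voom (limma 3.58.1), upper-quartile scaling, other filters, a replicate block, limma with a trend on log2(FPKM + 1) or log2(TPM + 1), and each library left out. Genes to which DESeq2 gave no adjusted p-value counted as not called. The fits were tested on simulated data. List symbols were matched through a RefSeq table. Il1rn transcripts were assigned to starts through the GENCODE annotation. Figures used matplotlib 3.10.9 in Python 3.11.15.

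The members and lists were chosen with earlier results of these data known. Named genes were the members, up to 5 of the most abundant tested genes of each list, list genes at an unadjusted p-value under 0.05 whose groups did not overlap, and the 5 nearest profiles with a mean of at least 1 CPM. Of the marker lists not every abundant gene is named. Genes outside this rule are said to be so, or are named with a count of genes at 0.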

Additional observations from a re-analysis of the deposited data

How the results depend on the processing

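With all 6 libraries, edgeR, limma-voom, upper-quartile scaling, both other count filters, limma on log2(FPKM + 1) or log2(TPM + 1), and no fold change threshold gave 0 DEGs among all genes, among the members and in the pathway lists. At an unadjusted p-value under 0.05 edgeR counted 2314 genes. DESeq2 called 884 genes, 4 members and 19 pathway genes. With 1 library left out, edgeR called 0 to 1106 genes, 0 to 5 members and 0 to 19 pathway genes, the highest values without Db + Ato10 replicate 3 and 0 without any one of the others. DESeq2 with 1 library left out, added after seeing the data, called 195 to 2614 genes, 0 to 6 members and 3 to 31 pathway genes. Without Db replicate 1 it called 195 genes, 0 members and 3 pathway genes, without replicate 2 it called 623, 3 and 14, and without replicate 3 it called 223, 0 and 5. Without Db + Ato10 replicate 1 it called 313, 1 and 4, without replicate 2 it called 372, 3 and 8, and without replicate 3 it called 2614, 6 and 31. The cause was not tested. Several members and pathway genes passed the filter only with the Db + Ato10 counts, so the numbers of them called are no support. The number of members whose groups did not overlap was 7, and 6 with FPKM or TPM, where Casp4 overlapped. With 1 library left out it was 7 to 9, but fewer libraries can only keep or raise this number. This range is therefore no check. The log2 fold change of Il1r1 ran with 1 library left out from -0.0173 to 1.40 with edgeR and from -0.0202 to 1.41 with DESeq2, the lowest without Db + Ato10 replicate 1; those of the other 9 members kept their direction in each alternative run. Il1b ranged from 3.34 to 7.95 over all these runs. The replicate block gave 0 DEGs and 0 members called. Correlations across genes of the deviations of same-numbered libraries were -0.153, 0.0598 and 0.210, and 2 of the 3 Db + Ato10 libraries and 1 of the 3 Db libraries matched their own number best, so the numbers were not taken to pair the mice. The 3-count floor limits Il1a and Nlrp3 in the Db group.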
